A study of Mus musculus with 20 samples.

Results

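Dnase1 is the gene of deoxyribonuclease I, and it was followed through every probe set that the platform annotation gives to Dnase1 alone, which were 2 of the 12422 probe sets on the array. The gene was singled out because its signal was low in the kidney of Hyp mice, so its Hyp against normal difference is described here without a test. The study hybridised kidney RNA to 20 oligonucleotide arrays, and each array held a pool of 3 C57BL/6J mice. There were 5 arrays each for Hyp mice fed low phosphate diet, Hyp mice fed control diet, normal mice fed low phosphate diet and normal mice fed control diet. Hyp mice carry an X-linked mutation of Phex and model X-linked hypophosphatemia, in which the kidney wastes phosphate. The series asked how the kidney of both genotypes responds to scarce dietary phosphate. The labels give neither the age of the mice nor whether Hyp females carried 1 or 2 mutant alleles. Female pools made up 8 arrays and male pools 12, and the diets had lasted 5 days for 12 arrays and 3 days for 8. Arrays with consecutive title numbers form runs of 2 or 4 that share sex and days on diet.

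Deoxyribonuclease I is a secreted endonuclease that cuts DNA outside cells, and it needs calcium and magnesium ions to do so. It is made by the exocrine pancreas and the salivary glands, and the kidney is a further source of it in mice. Monomeric actin binds and inhibits it, and the enzyme helps to clear chromatin that dying cells release. Mice without the enzyme can develop an immune disease that resembles lupus.

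The gene lies on the plus strand of chromosome 16, at positions 4036958 to 4040024 of the GRCm38.p6 build in the RefSeq table. Its last 54 bases overlap the span of Trap1, which encodes a mitochondrial chaperone. RefSeq gives 2 promoter windows for the gene, each from 250 bases before to 50 bases after a transcript start, and the starts are 109 bases apart. The window of the downstream start is printed because its 300 bases hold 191 bases of the other one as well, and because the transcript level moved with both genotype and diet. Capitals mark a nuclear receptor half-site, AGGTCA, and an E-box, CACGTG.
Dnase1 promoter, chr16:4036895-4037194, GRCm38.p6, plus strand: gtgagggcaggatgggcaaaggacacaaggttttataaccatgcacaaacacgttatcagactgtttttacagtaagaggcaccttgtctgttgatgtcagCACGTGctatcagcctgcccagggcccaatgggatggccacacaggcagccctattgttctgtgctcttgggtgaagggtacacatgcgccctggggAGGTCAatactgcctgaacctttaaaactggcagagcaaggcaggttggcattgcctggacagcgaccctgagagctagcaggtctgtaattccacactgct
Both strands were searched for 6 motifs that do not overlap one another at these positions. AGGTCA matched 1 time in the printed window and 0 times in the upstream one, and 16.3% of 32851 mouse promoter windows of the same length hold it. CACGTG matched 1 time, in the stretch that both windows share, against 7.15% of all windows. CCAAT matched 1 time in the printed window and 2 times in the upstream one (37.4% of all windows), and TATAAA matched 1 time in the stretch they share (13.6%). GTTAAT, an HNF1 half-site, matched 1 time in the upstream window only (7.1%), and the cyclic AMP response element TGACGTCA matched in neither (1.79%). A match is a description of the letters and not evidence of binding.

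The 2 probe sets behaved differently. Probe set 92865_at was bright, with signal intensities of 475.5 to 9585.1 on the 20 arrays, and all Dnase1 values below are from it. Probe set 160452_at had intensities of 5.6 to 49.9 and lay below the intensity filter at 79.4, so it was not tested. Its medians were 13.9 in Hyp mice on low phosphate diet, 9.5 in Hyp mice on control diet, 14.6 in low phosphate normal mice and 14.4 in control normal mice, and the 4 groups overlapped. Why it is dim was not tested.

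Before the results, the arrays themselves were compared. Arrays 5 to 8, which are the females fed for 5 days with 1 array per group, stood apart. Their median Spearman correlations with the other arrays were 0.895 to 0.934, against 0.943 to 0.969 for the other 16 arrays, and their ratios of actin 3′ to 5′ signal, a sign of RNA quality, were 1.74 to 2.61 against 1.22 to 1.98. Xist was 1306 to 1913 in female arrays and 6.1 to 60.9 in male arrays, so every array fitted its sex label. The nephron markers Umod, which encodes uromodulin of the thick ascending limb (7434 to 12084), Slc12a1, its sodium-potassium-chloride cotransporter (7146 to 11293), and Aqp2, the water channel of the collecting duct (756 to 2738), were bright on all 20 arrays. Phex was dim, at 11.5 to 106.3 over all groups, and below the filter. Whether its probe set lies in the mutated part is not known here, so it does not check the genotype.

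Dnase1 was about 4 times lower in Hyp kidney on either diet. On control diet its intensity was 475.5, 888.8, 1028.1, 1170.6 and 1255.1 in the 5 Hyp arrays, and 2748, 3674.8, 3790.3, 4101.2 and 6306.5 in the 5 normal arrays. On low phosphate diet it was 1582.3, 1588.5, 1648.5, 1664.6 and 1999.2 in Hyp arrays, and 4810, 6251.1, 6507.4, 6747.7 and 9585.1 in normal arrays. The genotypes did not overlap on either diet, which held for 27 of 8695 probe sets (0.311%) on low phosphate diet and 22 (0.253%) on control diet in the direction of lower in Hyp, and the highest Hyp value of all, 1999.2, was below the lowest normal value, 2748. The means on low phosphate diet were 1697 ± 173 in Hyp mice and 6780 ± 1740 in normal mice (SD, n = 5 each). On control diet they were 964 ± 307 in Hyp mice and 4124 ± 1320 in normal mice (SD, n = 5 each).

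**Figure D1:**
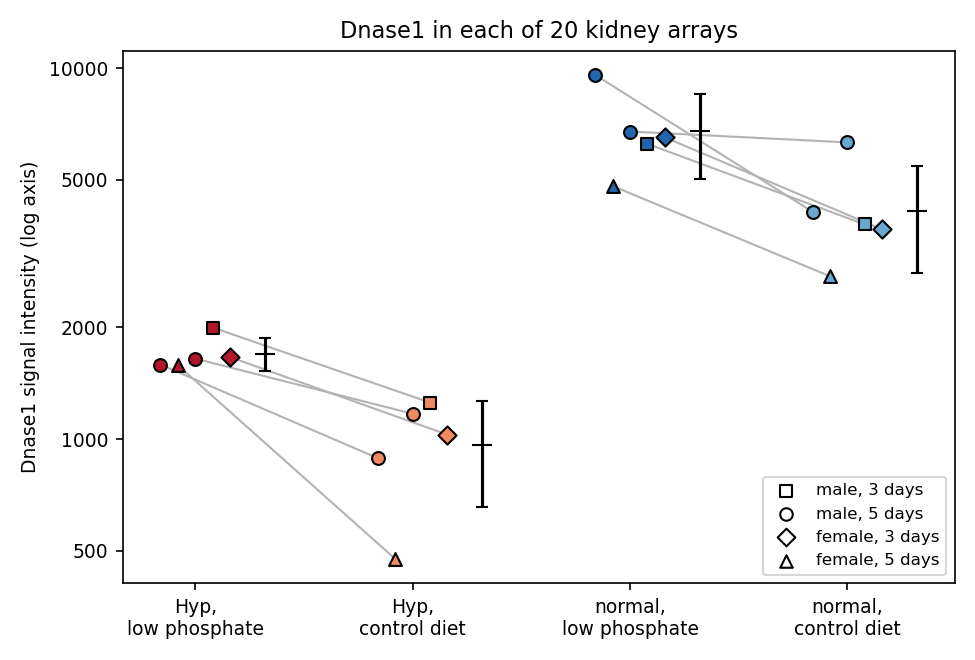
Dnase1 signal intensity (log axis) on each of the 20 arrays in 4 groups, with marker shape for sex and days, grey lines joining the diets within a genotype and run of arrays, and black bars for mean ± SD. All 10 Hyp arrays (475.5 to 1999.2) lie below all 10 normal arrays (2748 to 9585.1), and every grey line is higher at its low phosphate end.

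Ordered by mean, the groups run from Hyp on control diet through Hyp on low phosphate diet and normal on control diet to normal on low phosphate diet. The neighbours Hyp on low phosphate and Hyp on control diet did not overlap (lowest 1582.3 against highest 1255.1), and neither did Hyp on low phosphate and normal on control diet. The 2 diet groups of normal mice overlapped, through array 19 on control diet at 6306.5. The mean of Hyp mice on low phosphate diet was 41.1% of that of normal mice on control diet, and the mean of Hyp mice on control diet was 23.4% of it.

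The difference of genotypes stood in every run of arrays that held both genotypes. Of the 10 comparisons between a Hyp and a normal array of the same sex, days and diet, 10 were lower in Hyp, and the normal array was 3.02 to 6.03 times as bright as the Hyp one (median 4.00). On low phosphate diet the normal array was 3.04 to 6.03 times as bright, with a median of 3.91, and on control diet 3.02 to 5.78 times, with a median of 4.61. Of these 10 comparisons, the 2 of males fed for 5 days in arrays 9, 10, 19 and 20 lie across different runs of title numbers. In the fit over 20 arrays the log2 difference of Hyp minus normal was -2.01 ± 0.13 (SE) averaged over diets, -1.94 ± 0.18 on low phosphate diet and -2.07 ± 0.18 on control diet. Over all probe sets, 1.28% of 8695 passed an adjusted p of 0.05 in limma for genotype averaged over diets, 0.357% did on low phosphate diet and 0.253% on control diet. Nothing is read from these shares for Dnase1, which was chosen on this contrast. Among the 8695 probe sets, 2 had all 10 Hyp arrays below all 10 normal arrays (0.023%), Dnase1 and Car14, and 1 had them all above, Ttr. In a whole kidney, fewer cells that make a transcript and less of it per cell cannot be told apart.

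Dnase1 was higher on low phosphate diet in both genotypes. Among the 10 pairs of arrays that share genotype and run of numbers, the low phosphate array was the brighter one 10 times, by 1.07 to 3.33 times with a median of 1.70. In Hyp mice the low phosphate array of each pair was 1.41, 1.59, 1.62, 1.79 and 3.33 times as bright as the control one. In normal mice it was 1.07, 1.65, 1.75, 1.77 and 2.34 times as bright. The largest ratio was from Hyp females fed for 5 days, in arrays 8 and 7, and the smallest from normal males fed for 5 days, in arrays 20 and 19. The choice of the gene did not use the contrast of diets averaged over genotypes, so it was tested. The log2 difference was 0.79 ± 0.13 (SE; 95% interval 0.53 to 1.06), a 1.73-fold rise, with an adjusted p of 0.0050 in limma over 8695 probe sets, and it ranked 14 by p. For this contrast 0.472% of probe sets passed, 0.173% higher and 0.299% lower. An exact two-sided sign-flip permutation of the 10 paired differences gave p = 0.00195, the smallest that 10 pairs allow, and 61 of 8695 probe sets (0.702%) were higher on low phosphate in all 10 pairs. Fitted without terms for sex and days, the difference was again 0.79 but the adjusted p was 0.058.

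Set side by side, the rise was 0.86 ± 0.18 in Hyp mice and 0.73 ± 0.18 in normal mice on the log2 scale (SE). These share arrays with the contrast that chose the gene and are given without a test. The genotype by diet term, Hyp rise minus normal rise, was 0.13 ± 0.25 (SE), with a 95% interval of -0.41 to 0.66, so rises that differ by up to 1.58 times in favour of Hyp are inside it. On the linear scale the rise per pair was 478 to 1107 intensity units in Hyp mice and 441 to 5484 in normal mice, with medians of 699.7 and 2461. On low phosphate diet the Hyp mean was 25.0% of the normal mean, and on control diet it was 23.4%.

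**Figure D2:**
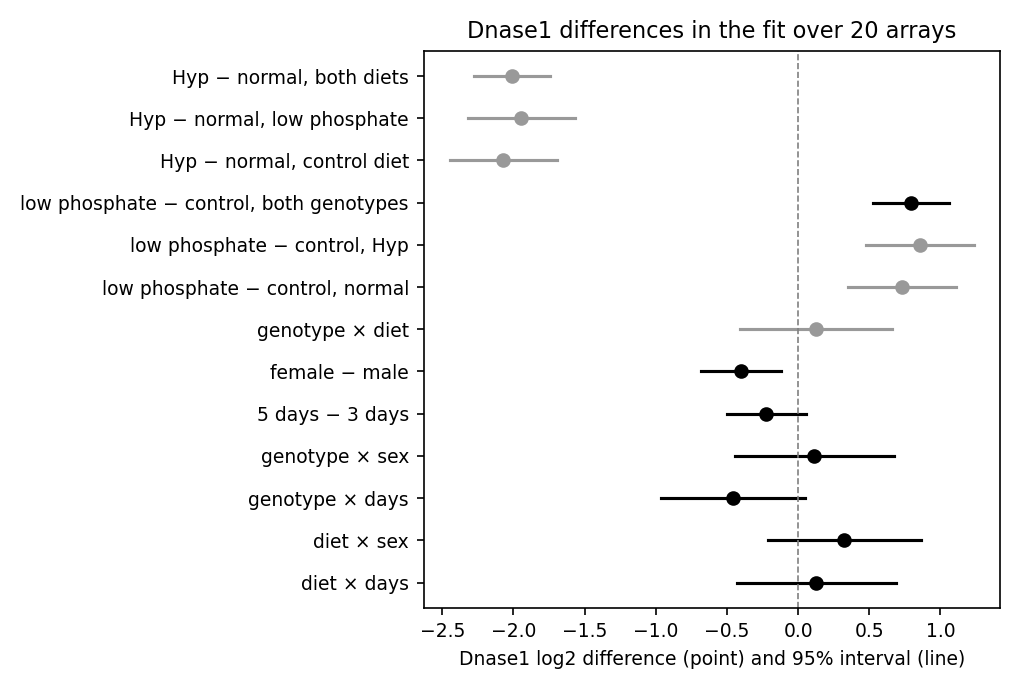
Log2 differences of Dnase1 (points) with 95% intervals (lines) from the fit over 20 arrays, in black where a test was made and in grey where the gene's choice bears on the contrast. The diet interval averaged over genotypes (0.53 to 1.06) lies above 0, and the intervals of the terms that combine genotype or diet with sex or days include 0.

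Sex and days on diet bore less clearly on Dnase1. The log2 difference of females minus males was -0.40 ± 0.13 (SE; adjusted p = 0.045 in limma), in a contrast for which 16.6% of probe sets passed, 7.95% as higher and 8.67% as lower in females. Sex differs only between runs of arrays, and with the run as a block the difference was -0.41 and did not pass (adjusted p = 0.39), while the probe sets that passed fell to 97, against 1445. Without arrays 5 to 8 the difference was -0.13 (adjusted p = 0.95), and it also lost its call in 12 of the 20 fits that left out 1 array. Normal females fed for 5 days had 4810 on low phosphate and 2748 on control diet, and the normal males fed as long averaged 8166 and 5204. Among mice fed for 3 days, normal females had 6507.4 and 3674.8 and normal males 6251.1 and 3790.3 on the same diets. Mice fed for 5 days minus those fed for 3 days differed by -0.22 ± 0.13 (SE; adjusted p = 0.19), where 40.9% of probe sets passed in limma. Days too differ only between runs of arrays, so effects of days and of run cannot be told apart in that share. With the run as a block the days difference of Dnase1 was -0.22 (adjusted p = 0.51 in limma). Without arrays 5 to 8 the sign turned, at 0.049.

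The genotype difference was not shown to depend on sex or on days. The genotype by sex term was 0.11 ± 0.26 (SE; 95% interval -0.45 to 0.67, adjusted p = 0.95). The genotype by days term was -0.46 ± 0.24 (SE; 95% interval -0.96 to 0.05, adjusted p = 0.88). The diet by sex term was 0.32 ± 0.25 (SE; adjusted p = 1.00) and the diet by days term 0.13 ± 0.26 (SE; adjusted p = 1.00). In limma 0 of 8695 probe sets passed for each of these 4 terms, and 558, 474, 302 and 291 had an unadjusted p under 0.05.

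The genes whose log2 intensities followed Dnase1 most closely over the 20 arrays were ranked by Pearson's r. These values describe the pattern, since all arrays share the 2 genotypes and the genes were picked for it, and they carry no p. Over 7791 other probe sets with 1 gene, r had a median of -0.048, with 0.458 at the 95th percentile and -0.498 at the 5th percentile. The 8 most alike were Kl (r = 0.87), which encodes klotho, the co-receptor for FGF23; Car14 (0.87), a membrane-bound carbonic anhydrase; Ccnd1 (0.84), cyclin D1; Ankrd33b (0.83); Cryl1 (0.79), lambda-crystallin; Gadd45b (0.77), a stress-induced growth arrest gene; Lpin1 (0.77), a phosphatidate phosphatase; and Slc2a2 (0.76), the glucose transporter GLUT2. Among them 7 of 8 passed as lower in Hyp mice in limma averaged over diets, all but Lpin1 (-0.28, adjusted p = 0.080). Over all probe sets 0.506% did. Slc2a2 alone passed as higher on low phosphate diet (0.39, adjusted p = 0.0074), against 0.173% of all. The others also had positive signs by diet, such as Ccnd1 (0.31, adjusted p = 0.081). Since the 8 genes were picked for following a gene that is low in Hyp mice, their count by genotype follows from the choice. Dnase1 was also higher on low phosphate diet, so the choice favours positive signs by diet. The diet p-values of these genes are no separate support either.

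Kl ran from 4460 to 5958 in Hyp mice on low phosphate diet and from 6602 to 7824 in normal mice on that diet. On control diet Kl ran from 3919 to 4939 in Hyp mice and from 5500 to 7069 in normal mice, so the genotypes did not overlap on either diet. Over all probe sets 0.311% lay lower in Hyp without overlap on low phosphate diet and 0.253% on control diet. The log2 difference of Kl by genotype was -0.47 ± 0.08 (SE; adjusted p = 0.0035 in limma), and by diet 0.14 (adjusted p = 0.60). Car14 ran from 1150 to 1638 in Hyp mice and from 1997 to 2354 in normal mice on low phosphate diet. On control diet Car14 ran from 927.8 to 1562 in Hyp mice and from 1730 to 2146 in normal mice, and its log2 difference by genotype was -0.65 ± 0.09 (SE; adjusted p = 0.00079 in limma). Both genes were lower in Hyp by a smaller step on the log2 scale than Dnase1. Since both were picked for following Dnase1, their separation by genotype and its p-values are no separate support.

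The 8 genes that ran most against Dnase1 were Ttr (r = -0.92), the thyroid hormone and retinol carrier transthyretin; Pla2g7 (-0.91), the platelet-activating factor acetylhydrolase; Bex4 (-0.87); Kcnj1 (-0.87), the ROMK potassium channel; Ramp2 (-0.87), a receptor activity-modifying protein; Ptprf (-0.85), a receptor tyrosine phosphatase; Prom1 (-0.85), prominin 1; and Pls3 (-0.84), an actin-bundling plastin. Of these, 7 passed as higher in Hyp mice in limma, all but Pls3 (0.26, adjusted p = 0.081). Over all probe sets 0.771% did. Ttr alone passed as lower on low phosphate diet, against 0.299% of all, and the others had negative signs too. Since the 8 genes were picked for running against a gene that is low in Hyp mice, their count by genotype follows from the choice. For the same reason the genotype p-values in this paragraph are no separate support. Dnase1 was also higher on low phosphate diet, so the choice favours negative signs by diet. The diet p-values in this paragraph are no separate support either. Ttr ran from 916.3 to 1535 in Hyp mice and from 98.6 to 195.7 in normal mice on low phosphate diet, and from 1994 to 4284 in Hyp mice and 367.7 to 492.7 in normal mice on control diet. Its log2 differences were 2.68 by genotype (adjusted p = 5.0e-10) and -1.42 by diet (adjusted p = 1.2e-05), each opposite in sign to those of Dnase1. Pla2g7 ran from 238.6 to 457.3 in Hyp mice and from 157.8 to 216.1 in normal mice on low phosphate diet, and from 338.1 to 506.6 in Hyp mice and 184.5 to 254.4 in normal mice on control diet. Its genotype difference was 0.86 ± 0.09 (SE; adjusted p = 8.8e-05), and by diet it was -0.18 (adjusted p = 0.55).

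**Figure D3:**
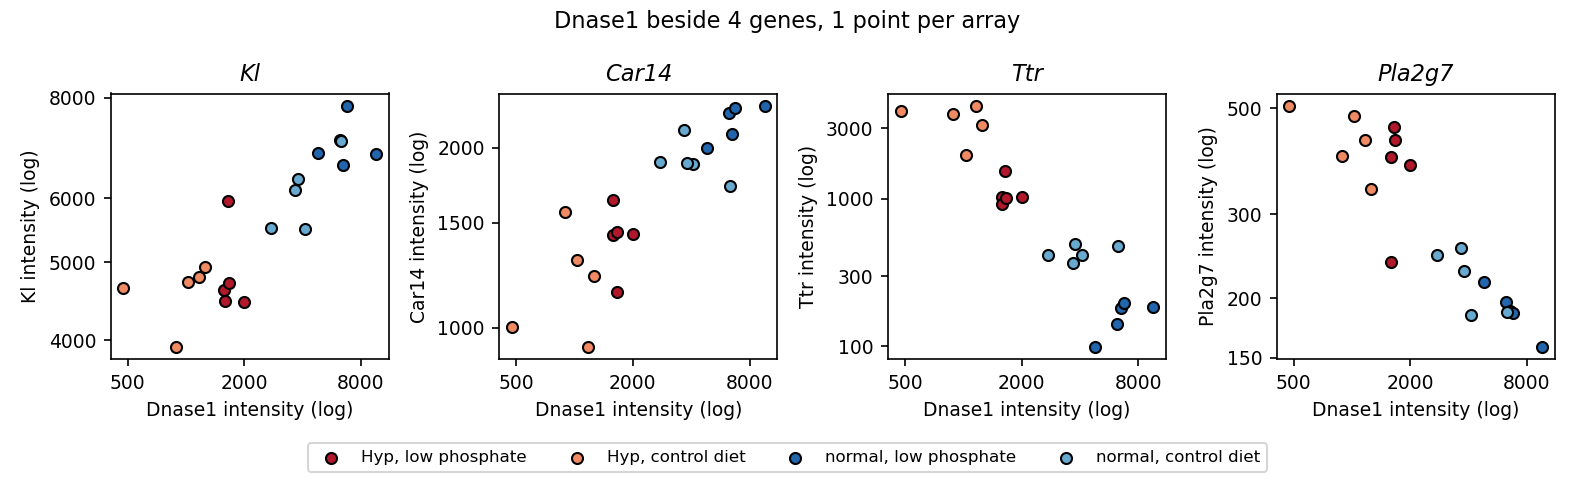
Intensities of Kl, Car14, Ttr and Pla2g7 (vertical, log axes) against that of Dnase1 (horizontal, log axis), 1 point for each of the 20 arrays, coloured by group. Hyp and normal arrays form separate clusters in each panel, and the order of the groups along Ttr is the reverse of that along Dnase1.

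Within the genotypes the likeness was weaker for most. Over the 10 Hyp arrays r was 0.25 for Kl, 0.46 for Car14, 0.82 for Cryl1, 0.76 for Slc2a2 and -0.77 for Ttr. Over the 10 normal arrays it was 0.75 for Kl, 0.55 for Car14, 0.70 for Cryl1, 0.40 for Slc2a2 and -0.54 for Ttr. All 16 genes kept the sign of r in each genotype, which their choice by r over these same arrays favours. Once the means of group, sex and days were taken out, 6 of the 8 most alike and 8 of the 8 most opposed genes kept it. In these residuals r was 0.16 for Kl and -0.18 for Car14, and among the 16 it was largest in size for Kcnj1 (-0.74), Ramp2 (-0.71), Lpin1 (0.61) and Ankrd33b (0.59). Without arrays 5 to 8, 3 of the 8 most alike and 6 of the 8 most opposed genes stayed in their lists. The genes nearest to Dnase1 in these residuals were others, led by Pithd1 (0.82), Fars2 (0.82), a mitochondrial phenylalanine tRNA synthetase, Paip2 (0.81) and Plin2 (0.78), a lipid droplet protein, then Dhx40 (0.77), Tufm (0.75), Wrnip1 (0.74) and Pfdn2 (0.74). The most opposed in residuals were Anxa6 (-0.84), Thbd (-0.83), Nxt1 (-0.81) and Serpinb9 (-0.80). Residual r over all 7791 probe sets had 0.430 at its 95th percentile and -0.495 at its 5th.

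**Figure D4:**
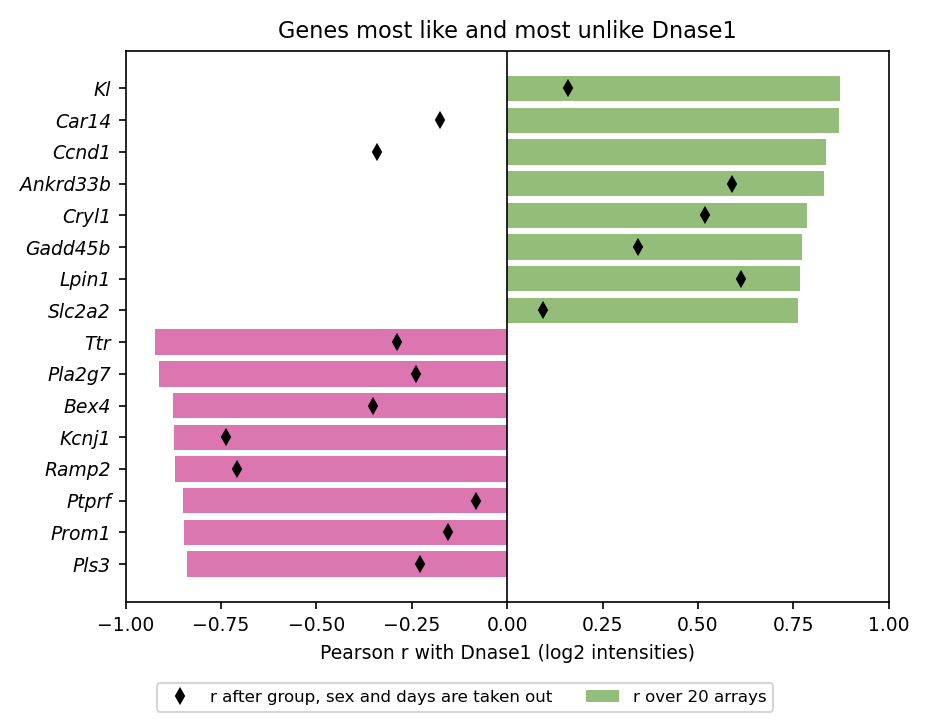
Pearson r with Dnase1 over 20 arrays (bars) and after group, sex and days are taken out (diamonds) for the 8 most alike and 8 most opposed genes. Bars reach 0.87 for Kl and -0.92 for Ttr, and the diamonds of Car14 and Ccnd1 lie on the other side of 0.

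Other genes listed for DNA cutting were set beside Dnase1. Of 23 genes listed as DNA nucleases beside Dnase1, 17 were on the array and 11 passed the intensity filter. For genotype averaged over diets, where 0.771% of probe sets rose and 0.506% fell, 1 of the 11 rose and 0 fell, with a median log2 difference of 0.094 against 0.020 over all probe sets. The gene that rose, Plscr1 (0.43, adjusted p = 0.016), encodes a phospholipid scramblase and is not a nuclease by its known role. Other tested members, such as Dffa, Nbn and Ercc1, are also not nucleases themselves. The count and median are therefore not of DNA-cutting enzymes alone. By diet 0 of the 11 passed, where 0.472% of all probe sets did (median 0.034, against 0.0092 over all). With 11 genes tested, 0 lower by genotype and 0 by diet are near those shares, so nothing is read from them. Dnase1l1, a paralogue of Dnase1, differed by 0.029 between genotypes (adjusted p = 0.88) and by 0.039 between diets (adjusted p = 0.92). The relatives Dnase1l2 and Dnase1l3 were dim, with mean intensities of 34.1 and 53.4, and were not tested. Endog, a mitochondrial endonuclease, differed by -0.054 (adjusted p = 0.83) and Apex1, the abasic site endonuclease, by -0.044 (adjusted p = 0.86) between genotypes.

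Among ribonuclease genes, 2 were higher in Hyp kidney. Rnase4 was higher by 1.14 ± 0.16 on the log2 scale (SE; adjusted p = 0.00079 in limma) and Ang, angiogenin, by 0.72 (adjusted p = 0.0044). Rnase4 and Ang share a promoter region in mice, and Ang has close paralogues that its probe set may not separate. These were 2 of the 6 tested genes of the ribonuclease list, where 0.771% of all probe sets passed as higher and 0.506% as lower. The list also holds Rnh1 (-0.23), which encodes a ribonuclease inhibitor and not a ribonuclease. The other 4, Rnh1 included, had negative signs and did not pass, which gave a median of -0.20, against 0.020 over all probe sets. Rnase1, a secreted ribonuclease with a mean intensity of 6.29, was below the filter and not tested. By diet 0 of the 6 passed, against 0.472% of all probe sets, with -0.032 for Rnase4 (adjusted p = 0.98) and -0.15 for Ang (adjusted p = 0.74).

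Among the tested genes listed for actin and its binding proteins and for DNA clearance and sensing, 0 passed for genotype or diet. Over all probe sets 1.28% passed for genotype and 0.472% for diet, so 0 of 13 and 0 of 8 are near those shares. Of 13 tested genes listed for actin and its binding proteins, 0 passed for genotype (median -0.021) or for diet (median -0.0058). The 13 include Hpx (0.28 by genotype, 0.25 by diet), which encodes hemopexin and is not an actin-binding protein by its known role. Actg1, gamma actin, differed by 0.091 between genotypes (adjusted p = 0.52), and Gsn, the actin-severing gelsolin, by -0.17 (adjusted p = 0.43). Actb, beta actin, had -0.74 ± 0.37 (SE; adjusted p = 0.36). Of 18 genes listed for DNA clearance and sensing, 12 were on the array and 8 were tested. Of these 8, 0 passed for genotype, 7 of them with a positive sign (median 0.16, against 0.020 over all probe sets), and 0 for diet (median -0.040). Fcgr2b, an inhibitory receptor for antibodies, had -0.57 by diet (adjusted p = 0.076). Among them C1qa and C1qc, subunits of complement C1q, differed by 0.27 each between genotypes (adjusted p = 0.28 and 0.24).

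Genes near Dnase1 on chromosome 16 were set against it too. Trap1, which overlaps its end, was not analysed here. Of the 5 measured genes nearest to Dnase1, Olfr15 and Naa60 upstream and Crebbp, Adcy9 and Pam16 downstream, 0 passed for genotype or diet. Over all probe sets 1.28% passed for genotype and 0.472% for diet. Other genes lie between, 1 before Crebbp and 11 before each of Olfr15 and Pam16. Crebbp, which encodes the acetyltransferase CBP and starts at position 4081334, differed by -0.14 ± 0.10 between genotypes (SE; adjusted p = 0.53) and 0.19 between diets (adjusted p = 0.57). Naa60, an acetyltransferase gene that ends at 3904781, differed by 0.12 (adjusted p = 0.41) and -0.057 (adjusted p = 0.85). Adcy9, an adenylate cyclase, differed by -0.0024 (adjusted p = 0.99) and 0.099 (adjusted p = 0.83). The largest genotype differences of the 5 were 0.42 ± 0.18 for Olfr15 (SE; adjusted p = 0.28) and -0.26 ± 0.29 for Pam16 (SE; adjusted p = 0.71). By diet Olfr15 differed by -0.0061 and Pam16 by 0.13.

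**Figure D5:**
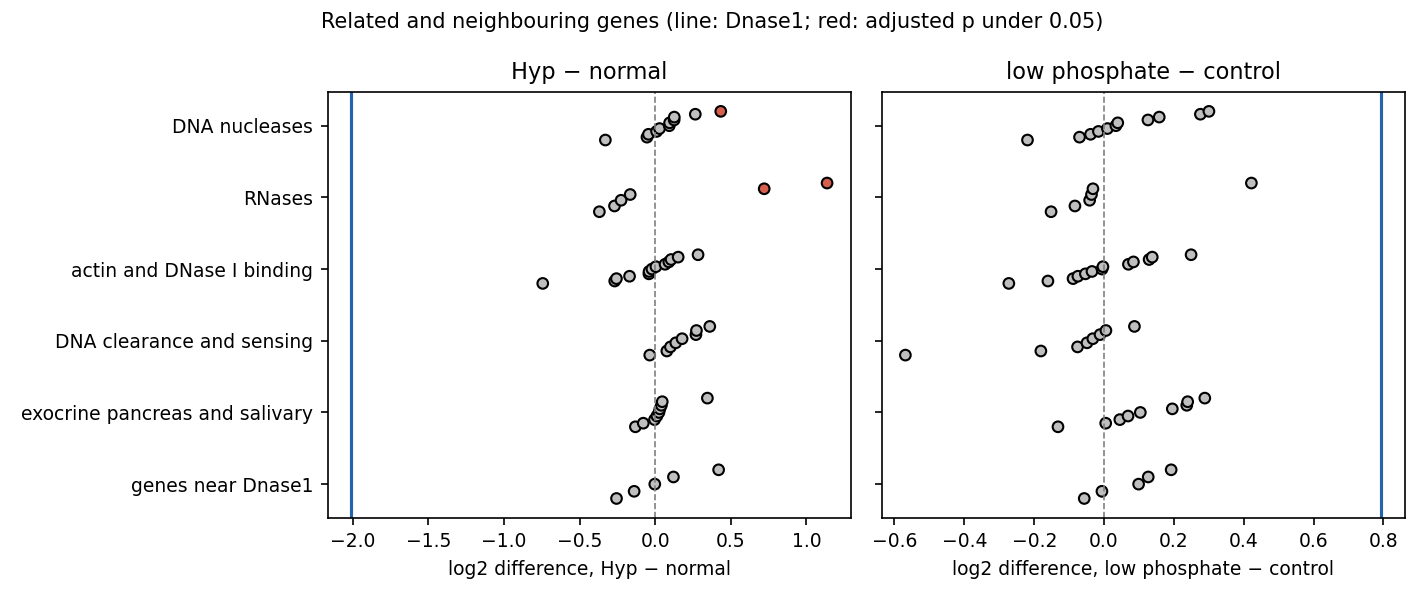
Log2 differences of Hyp minus normal (left) and low phosphate minus control diet (right) for the tested genes of 5 lists and the 5 measured genes near Dnase1, in red where adjusted p was under 0.05, with a blue line at Dnase1. The line stands at -2.01 on the left and 0.79 on the right, and no listed gene reaches it.

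Markers of cell types in the kidney were read beside these differences. Over all probe sets 0.771% rose and 0.506% fell by genotype, and 0.173% rose and 0.299% fell by diet. Of 7 proximal tubule markers, 1 was lower in Hyp mice, Slc2a2 (-0.34, adjusted p = 0.012), and 7 of 7 had a negative sign. Their summed intensity was 55633 to 67188 in Hyp mice and 65699 to 71378 in normal mice on low phosphate diet, and 56465 to 63986 in Hyp mice and 58666 to 64914 in normal mice on control diet. By diet, Slc2a2 rose and Slc22a6, the organic anion transporter OAT1, fell (-0.48, adjusted p = 0.0075), and in normal mice the low phosphate sums lay above the control ones. Of 6 markers of the thick ascending limb and distal tubule, Slc12a3 (0.33) and Kcnj1 (0.33) rose and Calb1 (-0.71), the calcium-binding calbindin of the distal tubule, fell in Hyp mice in limma. Calb1 also fell with low phosphate diet (-0.62, adjusted p = 0.00049). Of 3 collecting duct markers Slc4a1 rose in Hyp mice (0.35, adjusted p = 0.043) and Avpr2 fell with low phosphate diet (-0.31, adjusted p = 0.044). Aqp2 (-0.13) and Avpr2 (0.091) did not pass for genotype. Slc4a1 is a red blood cell gene as well, and the red blood cell markers Hba-a1 (0.28) and Alas2 (0.45) had positive signs without passing. Which cells the rise of Slc4a1 came from was not tested. For podocytes (2 tested), endothelium (5), macrophages and lymphocytes (3), red blood cells (2) and adipocytes (2), 0 passed for genotype or diet. The part of these shifts in the differences of Dnase1 was not tested.

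Exocrine pancreas makes the enzyme and lies near the left kidney, so its genes were listed as well. Of 9 tested genes of exocrine pancreas and salivary glands 0 passed for genotype (median 0.025), and 0 passed for diet (median 0.10), 8 of the 9 with a positive sign. Over all probe sets 1.28% passed for genotype and 0.472% for diet. The summed intensity of 5 pancreatic markers was 3845 to 5406 in Hyp mice and 3970 to 5576 in normal mice on low phosphate diet. On control diet the sum was 3441 to 4613 in Hyp mice and 3569 to 6015 in normal mice, so the genotypes overlapped on both diets. Brightness varied widely among the 13 listed genes on the array. Cela1 and Ctrb1 were the brightest, with mean intensities of 2689 and 1094. Prss2, a trypsinogen, and Amy1, an amylase, had mean intensities of 50.5 and 64.8, below the filter.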

How the data were processed

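Kidney RNA of 20 pools of 3 mice was measured on 1 array each. The values deposited by the authors are linear signal intensities. Their trimmed mean (2% off each end) was 500.25 to 500.31 on every array, so arrays had been brought to 1 level before deposit, and no source used here names the software. Of 12488 rows, 66 control probe sets were set aside. Of the 12422 left, 10833 have 1 gene symbol, 396 several and 1193 none in the platform annotation, and 10817 matched the RefSeq gene table by gene number with 0 symbols changed. Before log2, 38 was added to each intensity (the 20th percentile), so a log2 difference understates the change of dim genes. The fit kept the 8695 probe sets whose mean was over the 30th percentile of means, 79.4.

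Differences were fitted with limma 3.58.1 in R 4.3.3 over all 20 arrays, with group and the combination of sex and days as terms (13 residual degrees of freedom), and two-sided p-values were adjusted by Benjamini-Hochberg over all probe sets of a comparison, at 0.05. Terms of genotype or diet with sex or days were added 1 at a time. The labels give no depth, so the number of arrays limits the precision, and p-values measure the spread between pools.

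Dnase1 and the lists were chosen with earlier results of these data known. The genes named were the 8 most alike and 8 most opposed to Dnase1 by r, the 8 and 4 by r of residuals, the 3 measured genes on each side on its chromosome (only 2 were found upstream), and list members that passed, or else the brightest 2, and some others were named after their values were seen. The lists were DNA nucleases, ribonucleases, actin and its binding proteins, DNA clearance and sensing, exocrine pancreas and salivary genes, and markers of 9 cell types. A gene with several probe sets was read from the brightest. Alternatives were an offset of 1, quantile normalization, no filter or one at the median, robust and trended moderation, a fit lacking the sex and days terms, the run of array numbers as a block, leaving out arrays 5 to 8, leaving out arrays 9, 10, 19 and 20, each single array left out, an exact sign-flip test and, added after the data were seen, the median ratio of pairs. The steps were tested on simulated data.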

Additional observations from a re-analysis of the deposited data

Results flagged for a closer look

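Within the 24 groups of 5 arrays formed by 6 described probe sets, 4 held an array whose gap to its nearest neighbour took over 0.71 of the group's range, and chance alone marks about 1 group in 20. Dnase1 in Hyp mice on low phosphate diet was 1999.2 on array 14, a male pool fed for 3 days, with the other 4 arrays at 1582.3 to 1664.6. Kl in Hyp mice on low phosphate diet was 5958.2 on array 10, a male pool fed for 5 days, and Ttr in the same group was 1535.3 on the same array, each the highest of its group. Kl in Hyp mice on control diet was 3919.4 on array 3, the lowest of its group. The cause was not tested.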

How the results depend on the processing

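The diet difference of Dnase1 kept its sign and its call in 20 of 20 fits that left out 1 array (log2 0.73 to 0.86, adjusted p 0.0021 to 0.017) and in the other alternatives except the fit without terms for sex and days (0.79, adjusted p = 0.058), and it was closest to the threshold without arrays 5 to 8 (0.68, adjusted p = 0.049). The genotype difference ran from -2.07 to -1.94 without single arrays and from -2.04 to -1.96 in the other alternatives. The sex difference did not hold its call. It was -0.41 with an offset of 1, -0.37 with quantile normalization, -0.40 without the filter, -0.41 with the run of arrays as a block, -0.13 without arrays 5 to 8 and -0.37 without arrays 9, 10, 19 and 20, with adjusted p of 0.053, 0.061, 0.057, 0.39, 0.95 and 0.060. Without single arrays it ran from -0.49 to -0.32 and was lost for arrays 2, 5, 6, 7, 9 and 13 to 19. The days difference was 0.049 without arrays 5 to 8, against -0.22 over all. The genotype by sex term ran from -0.06 to 0.32 without single arrays, with -0.063 without array 8. Counts of probe sets called also moved. For genotype averaged over diets the 111 became 29 without terms for sex and days, 61 without arrays 5 to 8, 73 without arrays 9, 10, 19 and 20, and 66 (array 2) to 100 without single arrays, with 70, 72 and 73 without arrays 10, 12 and 13. For diet the 41 became 16 without those terms, 80 with the block, 20 without arrays 5 to 8, and 25 (array 15) to 45 without single arrays, with 27 without array 14 or 17. For sex the 1445 became 97 with the block, 19 without arrays 5 to 8, and 988 to 1654 without single arrays. Of the 8 most alike and the 8 most opposed genes, Spearman's rho kept 6 and 6, and quantile normalization 7 and 8. By replicate number, no paired analysis was possible because the labels give none, so the sign-flip test instead paired arrays by genotype and run of array numbers and the block was that run, with which the diet difference was 0.79 (adjusted p = 0.0032). The cause of these shifts was not tested.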

Other observations

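Some listed genes differed between the sexes in limma, in a contrast for which 16.6% of all probe sets passed and which shrank from 1445 probe sets to 97 with the run of arrays as a block and to 19 without arrays 5 to 8. In the list of DNA nucleases Ercc1, a partner of the repair endonuclease XPF, was higher in females (log2 difference of females minus males 0.47, adjusted p = 0.014). Fen1, the flap endonuclease, was lower in females (-0.35, adjusted p = 0.018). Rpp30, a protein subunit of ribonuclease P, was lower (-0.50, adjusted p = 0.0025), as was C1qa (-0.55, adjusted p = 0.0054). Capg, an actin-capping protein, was higher (0.34, adjusted p = 0.041), and so were the pancreatic genes Ctrb1, a chymotrypsinogen (0.58, adjusted p = 0.0072), and Clps, colipase (0.80, adjusted p = 0.012).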
